A study of Mus musculus with 10 samples.

Results

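The 10 genes described here are Ak9, Gdap1, Cnpy1, Efcab3, Dscaml1, Abca16, Zfp54, Ttn, Nfasc and Dcaf8l, of 25239 genes in a count table of mouse testis RNA. They were picked by name as strong falls outside meiosis in Lsm7 conditional knockout testis at postnatal day 4 (P4), so their difference between the genotypes at P4 chose them and is given as a description, with no test. RNA-seq was made from testis of C57BL/6 mice at P4 and at postnatal day 7 (P7), with 2 wild-type (WT) and 3 knockout (cKO) libraries at each age. The cKO genotype is labelled Lsm7-flfl-stra8, which names floxed alleles of Lsm7, a subunit of the Lsm ring found on the U6 spliceosomal RNA, and Stra8, a gene that differentiating germ cells switch on. The labels do not describe the Cre line further, nor say whether the WT animals carried any allele or whether each library was a separate animal, so each p-value speaks of library-to-library spread alone, and that spread may be technical.

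The 10 genes share no pathway. Ak9 and Gdap1 encode a nucleotide kinase and an outer mitochondrial membrane protein that acts in mitochondrial shape and peripheral nerve upkeep. Dscaml1 and Nfasc encode immunoglobulin-type adhesion proteins of neurons, and Ttn encodes titin, the giant spring of the muscle sarcomere. Zfp54 belongs to the KRAB zinc finger family of DNA-binding repressors, Abca16 to the A class of ATP-driven transporters, Efcab3 to genes with the EF-hand calcium-binding fold, Cnpy1 to the Canopy family of endoplasmic reticulum proteins, and Dcaf8l is named as a relative of the substrate receptor gene Dcaf8 of the CUL4-DDB1 ubiquitin ligase.

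By the model fit across all genes, the label holds only in part. Levels are given in CPM, the usual read count normalised to library size. Genes that passed at P4 and averaged a log2 CPM of 1 or more were ordered from the lowest log2 fold change, and the 10 genes took ranks 2 to 50. Ak9 stood at 2, Gdap1 at 3, Cnpy1 at 5, Efcab3 at 7, Dscaml1, Abca16 and Zfp54 at 12, 13 and 14, Nfasc at 16, Ttn at 22 and Dcaf8l at 50. Rank 1, below all of them, was Gm8615 (log2 -7.15), which was not picked. Genes between them that were not picked included the meiotic genes Spata22 (-2.39) and Shoc1 (-2.35), and Rmst (-2.21). At the lower edge, Dcaf8l (-1.64) was next to Zfp458 (-1.64) and C2cd6 (-1.63), which are outside the set and were named after their values were seen. With weakly read genes included, the 10 ranked from 165 to 705 of 18419 genes tested.

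The promoters were read because the 10 genes were low together in the same libraries. RefSeq's table for GRCm38.p6 held a window of 250 bases before to 50 after a transcription start for 7 of the 10. Gdap1, Dscaml1 and Dcaf8l were not matched. For Ak9, Cnpy1, Efcab3, Abca16, Zfp54 and Ttn, 1 window began within 1 base of the gene start in the count table, while both windows of Nfasc lay 34470 or more bases away from it. Shown are the first 200 of the 250 bases before the start for the 4 genes whose window held a match to any of 6 short motifs, 5′ to 3′ on the strand of the gene. Capitals mark the matches.
Ak9 (chr10:41303684-41303883, plus strand): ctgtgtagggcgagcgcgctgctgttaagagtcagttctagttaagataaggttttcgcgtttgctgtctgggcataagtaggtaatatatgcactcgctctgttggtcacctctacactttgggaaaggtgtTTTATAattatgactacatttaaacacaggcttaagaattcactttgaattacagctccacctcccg
Efcab3 (chr11:105091969-105092168, plus strand): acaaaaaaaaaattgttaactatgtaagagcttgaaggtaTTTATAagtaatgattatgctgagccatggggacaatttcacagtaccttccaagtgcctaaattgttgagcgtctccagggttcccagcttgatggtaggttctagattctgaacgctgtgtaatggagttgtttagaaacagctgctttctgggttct
Abca16 (chr7:120409397-120409596, plus strand): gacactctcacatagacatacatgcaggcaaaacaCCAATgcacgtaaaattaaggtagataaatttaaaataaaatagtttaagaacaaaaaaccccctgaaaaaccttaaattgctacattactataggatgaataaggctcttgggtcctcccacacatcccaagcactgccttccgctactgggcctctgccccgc
Ttn (chr2:76982598-76982797, minus strand): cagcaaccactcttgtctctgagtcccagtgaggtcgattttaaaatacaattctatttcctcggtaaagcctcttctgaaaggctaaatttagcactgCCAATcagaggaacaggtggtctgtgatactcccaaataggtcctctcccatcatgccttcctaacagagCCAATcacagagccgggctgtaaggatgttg

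Short motifs were searched on both strands, in the window nearest to the count table's gene start. None of the 7 windows held the E-box letters CACGTG, which 7.15% of all 32851 RefSeq windows of the same length held. The core of the cyclic AMP response element was searched as TGACG, and it was in none of the 7 and in 20.8% of all windows. Also in none of the 7 were the letters taken for E2F factors, TTCCCGC, held by 4.6% of all windows. The part of the RFX motif that was searched reads GTTGCCA, and it was likewise in none of the 7, against 4.38% of all windows. The TATA box was searched as TATAAA and the CCAAT box by the letters of its name. TATA letters were found on the opposite strand at Ak9, 117 bases before the start, and at Efcab3, 210 bases before it, against 13.6% of all windows. CCAAT was found at Abca16 (215 bases before the start) and in 2 places at Ttn (151 and 81 bases before it), against 37.4% of all windows. A match to a few letters is a description of the sequence, not a binding site. The median count of CG pairs was 8 in the 7 windows and 7 over all windows.

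In gene structure the set leaned to long genes with many exons. Summed exon length had a median of 4711 bases, against 2534 over the 21795 genes with reads on a single chromosome, and 9 of 10 lay above that median. Ttn, on chromosome 2 (76703984 to 76982547, minus strand, GRCm38), had 104320 exonic bases in 314 exon blocks and was the longest of all. Nfasc (chromosome 1, 132564690 to 132741797, minus strand) had 10379 exonic bases and Dscaml1 (chromosome 9, 45430353 to 45753713, plus strand) had 6825 over a span of 323361 bases. Efcab3 (chromosome 11, 105092219 to 105117537, plus strand) was the shortest, at 1744 bases. GENCODE M21 also places Efcab3 transcripts upstream of that model, whose reads the table does not assign to it. The median genomic span was 87303 bases, against 17097 over all genes. GC content of the longest GENCODE transcript, known for 9 of the 10, was below the median of all genes in 7, with Zfp54 and Abca16 (40.3%) at the low end and 57.5% in Dscaml1 at the high end.

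The exons of the 10 genes shared no base with those of another gene in the table. Of the nearest genes on each side, 19 of 20 were tested, and 1 of these was called lower at P4 and 4 at P7, with none called higher. At P4 this was Zfp677, a zinc finger gene beside Zfp54 (log2 -1.44). Reads of Abca16 and Zfp54, which lie in clusters of related genes, are uncertain because the handling of reads with several matches is not given in the sources used here.

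The libraries held 28.8 to 41.8 M reads. The pair of P7 WT libraries was nearly as alike as counting noise allows (chi-square per degree of freedom 1.98, against 23.5 to 122.9 for other pairs of a group) and were summed to 1 sample, so that P7 compares 1 WT sample with 3 cKO. P7 cKO library 1 stood apart from the other P7 cKO libraries (117.3 and 122.9, against 23.5 between those). Sertoli cell genes summed to 2970 to 5780 CPM and germ cell genes to 247 to 430 CPM at P4 in these testis libraries, whose labelled cell type is germ cell. Lsm7 itself was read at 36.2 and 25.7 CPM in P4 WT and 44.9, 50.5 and 43.6 CPM in P4 cKO, and was not lower in the libraries labelled cKO. The table does not separate exons, so the labels could not be checked by it. In such bulk tissue, fewer cells of a type and less RNA per cell cannot be told apart.

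At P4 every one of the 10 genes was lower in all 3 cKO libraries than in both WT libraries, as the choice required. Over all genes, 25.6% were lower in cKO without overlap, and 4.13% passed edgeR's threshold in that direction, as all 10 did. Nothing is read from these counts. The folds ran from 8.01 for Ak9 to 3.12 for Dcaf8l, and the median log2 fold change was -2.15, against 0.00 over all genes tested. The spread within each genotype was small beside the gap for most of the set.

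**Figure D1:**
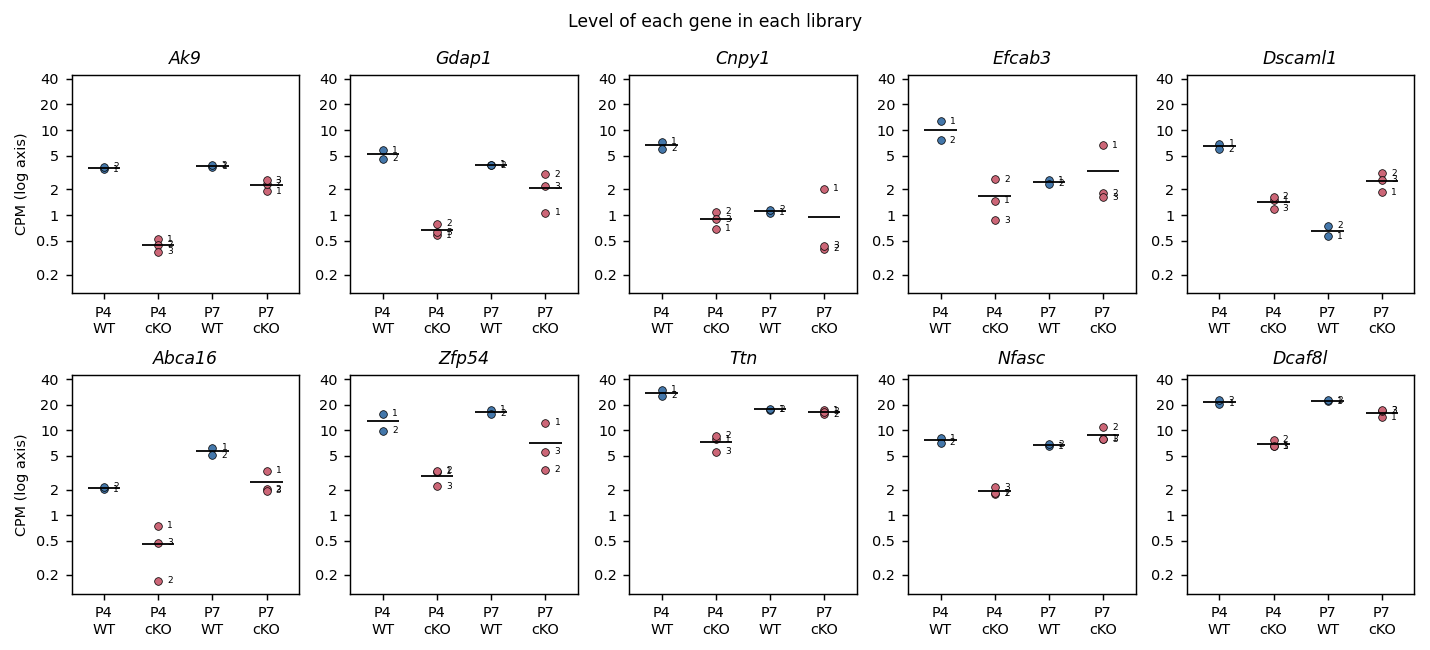
CPM on a log axis for each gene in each library (points, numbered by library), with the mean of each group as a line. WT is blue and cKO red. The P4 cKO points lie below both P4 WT points in every panel, while at P7 the genotypes are closer, and Dscaml1 and Nfasc lie higher in cKO.

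Ak9 (chromosome 10, 41303934 to 41433568, plus strand) was read at 3.44 and 3.71 CPM in P4 WT and at 0.521, 0.445 and 0.369 CPM in P4 cKO, 8.01-fold lower (log2 -3.002, SE 0.32). Its cKO counts were 18, 13 and 14 reads, against 104 and 126 in WT, so it is a weakly read gene whose groups were far apart. Its P7 level was 3.76 CPM in the WT sample, with 1.91, 2.34 and 2.58 CPM in cKO. The cKO libraries were again all lower, by less, and the difference did not pass (log2 -0.72, SE 0.36, edgeR adjusted p = 0.183).

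Gdap1 (chromosome 1, 17145373 to 17164270, plus strand) was read at 5.82 and 4.597 CPM in P4 WT and at 0.578, 0.787 and 0.632 CPM in P4 cKO, 7.82-fold lower (log2 -2.97, SE 0.41). P7 levels were 3.89 CPM in WT and 1.06, 3.02 and 2.19 CPM in cKO. All P7 cKO libraries lay below WT, with library 1 the lowest, and the difference did not pass (log2 -0.89, SE 0.47, edgeR adjusted p = 0.207).

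Dcaf8l (chromosome X, 89403848 to 89409689, minus strand) had the steadiest levels of the set. WT was at 20.6 and 22.7 CPM at P4 and at 22.3 CPM at P7. In cKO it was read at 6.51, 7.80 and 6.51 CPM at P4 (3.12-fold lower, log2 -1.64, SE 0.20) and at 14.2, 17.1 and 17.3 CPM at P7. The P7 libraries of cKO were all below WT, though the difference did not pass (log2 -0.46, SE 0.24, edgeR adjusted p = 0.207).

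Abca16 (chromosome 7, 120409647 to 120544813, plus strand) was read at 2.02 and 2.18 CPM in P4 WT and at 0.752, 0.171 and 0.474 CPM in P4 cKO (4.42-fold lower, log2 -2.14, SE 0.48), where library 2 held only 5 reads. Unlike most of the set it was higher in WT at P7, at 5.65 CPM, with 3.37, 2.03 and 1.95 CPM in cKO. Zfp54 (chromosome 17, 21423227 to 21435384, plus strand) was read at 15.8 and 9.90 CPM in P4 WT and at 3.24, 3.36 and 2.21 CPM in P4 cKO (4.37-fold lower, log2 -2.13, SE 0.45). Its P7 level was 16.5 CPM in WT against 12.2, 3.44 and 5.64 CPM in the cKO libraries. These were the members furthest below WT at P7, with every cKO library lower. Neither passed (log2 -1.21, SE 0.52, adjusted p = 0.126 for Abca16, and log2 -1.22, SE 0.53, adjusted p = 0.132 for Zfp54, by edgeR). Without P7 cKO library 1 both passed, with log2 -1.51 for Abca16 (edgeR adjusted p = 0.0304) and log2 -1.86 for Zfp54 (0.00250).

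Cnpy1 (chromosome 5, 28200819 to 28245788, minus strand) was read at 7.25 and 6.01 CPM in P4 WT and at 0.694, 1.10 and 0.896 CPM in P4 cKO (7.41-fold lower, log2 -2.89, SE 0.58). WT had come down to 1.11 CPM at P7, and cKO was at 2.04, 0.402 and 0.438 CPM, so that the groups overlapped. Efcab3 was read at 12.7 and 7.63 CPM in P4 WT and at 1.48, 2.64 and 0.869 CPM in P4 cKO (6.16-fold lower, log2 -2.62, SE 0.61). P7 levels were 2.46 CPM for WT, then 6.59, 1.81 and 1.63 CPM for cKO. In both genes P7 cKO library 1 was above WT and the other libraries below. With all libraries neither passed (log2 -0.24, SE 0.74, adjusted p = 0.850 for Cnpy1, and log2 0.43, SE 0.79, adjusted p = 0.736 for Efcab3, by edgeR). Without that library Cnpy1 passed as lower (log2 -1.40, edgeR adjusted p = 0.0294) and Efcab3 turned its sign without passing (log2 -0.52, adjusted p = 0.465).

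Ttn was read at 30.2 and 25.4 CPM in P4 WT and at 7.90, 8.63 and 5.58 CPM in P4 cKO (3.78-fold lower, log2 -1.92, SE 0.22). By P7 the genotypes had met, at 17.6 CPM in WT and 17.4, 15.4 and 16.6 CPM in cKO. Their difference was near 0 (log2 -0.10, SE 0.28, edgeR adjusted p = 0.830), and its sign turned with the scaling and with the correction for length. Per kb of exon Ttn was the lowest of the set, at 0.267 CPM per kb in P4 WT, a level above that of 14.2% of genes tested. All but Efcab3 of the 10 genes were below the median of 5.42 CPM per kb.

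Nfasc was read at 8.11 and 7.16 CPM in P4 WT and at 1.79, 1.81 and 2.13 CPM in P4 cKO (3.98-fold lower, log2 -1.99, SE 0.25). At P7 its order was turned round, with 6.69 CPM in WT and 7.99, 10.9 and 7.88 CPM in cKO, all above WT. That difference did not pass (log2 0.42, SE 0.31, edgeR adjusted p = 0.376).

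Dscaml1 was the single gene of the set to pass at P7, and it did so in the opposite direction to P4. It was read at 6.95 and 5.95 CPM in P4 WT and at 1.504, 1.64 and 1.19 CPM in P4 cKO (4.47-fold lower, log2 -2.16, SE 0.31). In WT at P7 it was at 0.566 and 0.748 CPM in the libraries, from 16 and 22 reads, and in cKO at 1.85, 3.09 and 2.60 CPM, from 61, 123 and 107 reads. All P7 cKO libraries lay above WT. Dscaml1 was thus 3.81-fold higher in cKO than in WT at P7 (log2 1.93, SE 0.45, edgeR adjusted p = 0.0181), with 3 of 3 cKO libraries higher than the lone WT sample. By edgeR the adjusted p was 0.0994 when only P7 was fitted (log2 1.90), 0.0549 when P7 cKO library 2 was left out (1.75), and 0.155 with offsets for length and GC content (1.54), so the call was lost under these settings while its direction held.

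P7 is the comparison that the choice of genes did not use. There 0 of the 10 passed as lower and 1 as higher by edgeR's test, against 9.72% and 7.26% of all genes. At an unadjusted p under 0.05, 2 were lower (Abca16 and Zfp54) and 1 was higher (Dscaml1). DESeq2 called 0 lower, and limma-voom called 2, which were Abca16 (adjusted p = 0.0375) and Zfp54 (adjusted p = 0.0491). In 6 genes all cKO libraries were below WT, in 2 all were above, and in 2 the groups overlapped. Of all genes, 34.6% were below and 36.2% above without overlap, shares that a single WT sample makes large. The median log2 fold change of the 10 was -0.35 at P7, against 0.08 over all genes, and 7 of the 10 were under 0, as were 46.2% of all genes.

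**Figure D2:**
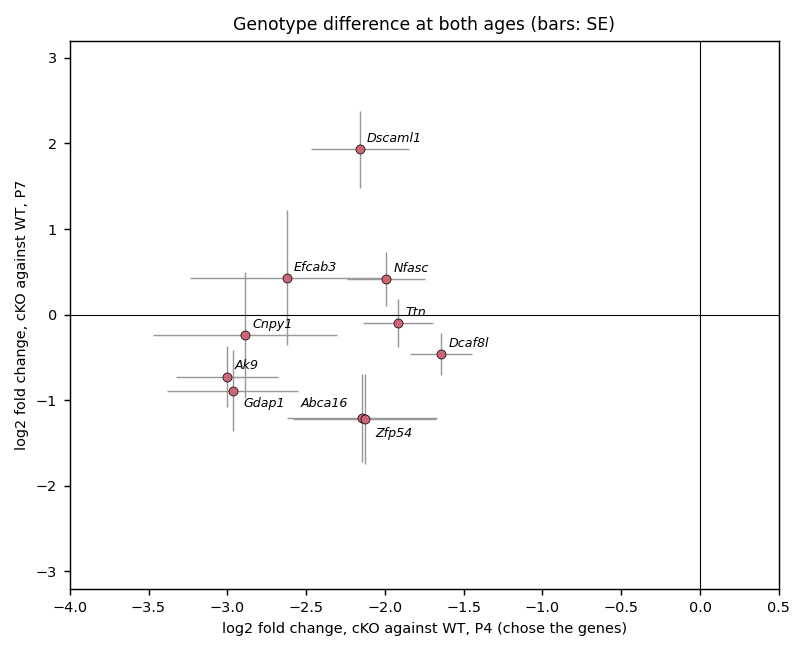
Log2 fold change of cKO against WT at P4 (horizontal axis) and at P7 (vertical axis) for the 10 genes, with standard errors as bars. All points lie left of 0, as chosen, while at P7 they spread from -1.22 for Zfp54 to 1.93 for Dscaml1.

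From P4 to P7 the levels moved in different ways in the genotypes. These values rest on the P4 libraries that chose the genes, which sets cKO low and WT high at P4, and carry no test. In cKO, the P7 mean was at least 2-fold the P4 mean in 8 of the 10, against 13.5% of all genes, from 5.26-fold in Abca16 and 5.12-fold in Ak9 to 2.01-fold in Efcab3, with 1.74-fold in Dscaml1 and 1.07-fold in Cnpy1. In 8 genes, all but Cnpy1 and Efcab3, every P7 cKO library lay above every P4 cKO library, as in 22.9% of all genes. Nothing is read from these counts, since low P4 cKO levels chose the genes. In WT, 6 genes were lower at P7 than in both P4 libraries, as were 42.8% of all genes, by 9.79-fold in Dscaml1, 5.97-fold in Cnpy1, 4.12-fold in Efcab3, 1.58-fold in Ttn, 1.34-fold in Gdap1 and by less in Nfasc. Abca16 was 2.69-fold higher in WT at P7, Zfp54 1.29-fold and Ak9 1.05-fold, and Dcaf8l was between its P4 values. WT levels of Dscaml1, Cnpy1 and Efcab3 at P7 were therefore close to or below those of cKO at P4, whereas those of Ak9, Dcaf8l and Zfp54 stayed near their P4 values.

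Across the 9 samples, the log2 levels of the 10 genes correlated pair by pair with Pearson's r from 0.092 (Dscaml1 and Abca16) to 0.99 (Ak9 and Dcaf8l), with a median of 0.68 over 45 pairs. Ttn followed the mean of the other 9 most closely (0.986) and Dscaml1 least (0.553). The genes were picked for a shared P4 difference and share libraries, so these values describe the set and nothing more. The genes outside it with the most similar profile to its mean were Gabrg3 (r = 0.964), Olfr1372-ps1 (0.964), Grhl2 (0.955), Catsperg2 (0.952) and Ttk (0.950), over the same 9 samples. Of these Ttk, a kinase of the mitotic spindle checkpoint, was the most strongly read, at 76.5 and 57.6 CPM in P4 WT and 37.9, 35.9 and 33.9 CPM in P4 cKO, whereas Gabrg3 was under 1 CPM in every library.

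Relatives and partners of the 10 genes were read from lists written with the P4 result of the 10 known. No other adenylate kinase of 8 tested was called at P4 (median log2 0.27), and at P7 only Ak3, a mitochondrial matrix form, was called (-0.72, SE 0.21, edgeR adjusted p = 0.0405). Of the other 3 Canopy genes, none was lower at either age, and Cnpy3 was higher in cKO at both (0.60, SE 0.16, and 1.07, SE 0.22). Among 13 other genes of the GDAP1 family and mitochondrial dynamics, none was lower at P4 and Fis1, a fission factor, was higher (0.68, SE 0.16). At P7 in that list 3 were lower, with Dnm1l, the fission GTPase, at -1.48 (SE 0.25), and 1, Fis1, was higher (0.72, SE 0.20).

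None of 10 other immunoglobulin-type adhesion genes was called at either age, with medians of -0.50 at P4 and 0.27 at P7. Of 10 ankyrin, spectrin and channel partners of neurofascin, 1 was lower at P4, and at P7 1 was lower, the spectrin gene Sptbn1 (-1.08, SE 0.20), and 1 was higher. Of 14 other ABCA transporters none was called at P4 (median -0.42), and at P7 1 was lower, the cholesterol exporter Abca1 (-1.46, SE 0.24), and 1 was higher. No gene of 11 in the EF-hand list passed at P4, although its median was -0.73, and Efcab14 was the single call at P7 (-0.86, SE 0.25). Of 15 DCAF receptors and ligase subunits none passed at P4 (median 0.12), and 4 were lower and 1, Dcaf15 (0.94, SE 0.25), was higher at P7.

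Relatives of Zfp54 on the KRAB zinc finger list were also low. Of 16 tested, 5 were called lower at P4 and 12 at P7, and 0 higher at either, against 4.13% and 9.72% of all genes called lower. Zfp942 was lower by log2 -1.08 at P4 (SE 0.22) and -1.35 at P7 (SE 0.26), Zfp944 by -1.001 (SE 0.20) and -1.15 (SE 0.24), and Zfp948 by -1.42 at P4 (SE 0.22), with -0.82 at P7 (SE 0.28, edgeR adjusted p = 0.0606). The list medians were -0.68 and -1.07. With offsets for length and GC content they were -0.44 at P4, with 1 call, and -0.13 at P7, with 0 calls, in a fit that called 2 genes in all at P7. Leaving out 1 library moved the P4 calls to 0 (WT library 1, or cKO library 2 or 3 of that age), 2 (cKO library 1) or 10 (P7 cKO library 1). At P7 they went to 5 when P7 cKO library 2 was left out, and to 0 when only P7 was fitted.

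Of 18 other sarcomere genes, 3 were called lower at P4, with a median of -0.70. These were Myom1 of the sarcomere's M band (-0.91, SE 0.21) and, named after their values were seen, Neb, the giant nebulin (-1.41, SE 0.21), and Capn3, a muscle protease (-1.40, SE 0.38). The 3 calls became 0 when WT library 1 or cKO library 2 or 3 of P4 was left out, 1 for cKO library 1 and 5 for P7 cKO library 1. With length and GC offsets there was 1 call, with a list median of -0.82. At P7 none was lower and Mybpc3 was higher (2.27, SE 0.59), with a median of 0.37. The 15 muscle markers, whose part in the Ttn difference was not tested, summed to 45.1 and 52.3 CPM in P4 WT and to between 42.7 and 60.3 CPM in P4 cKO, and 0 of 14 tested passed edgeR's threshold in either direction. Single markers differed from that sum. Myog, a regulator of muscle differentiation named after its values were seen, had 53 and 40 reads in P4 WT and 8, 12 and 22 in P4 cKO, without overlap (log2 -1.83, SE 0.62, edgeR adjusted p = 0.0819). Myh3, the embryonic myosin heavy chain gene, also named after its values were seen, was at log2 -0.83 (SE 0.26, edgeR adjusted p = 0.0675). The muscle regulator Myod1 had at most 4 reads in any library. At P7 the muscle sum was 22.7 and 28.7 CPM in WT and 53.7 to 82.8 CPM in cKO, with 2 markers called higher (list median 1.12), while Ttn was at log2 -0.10.

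**Figure D3:**
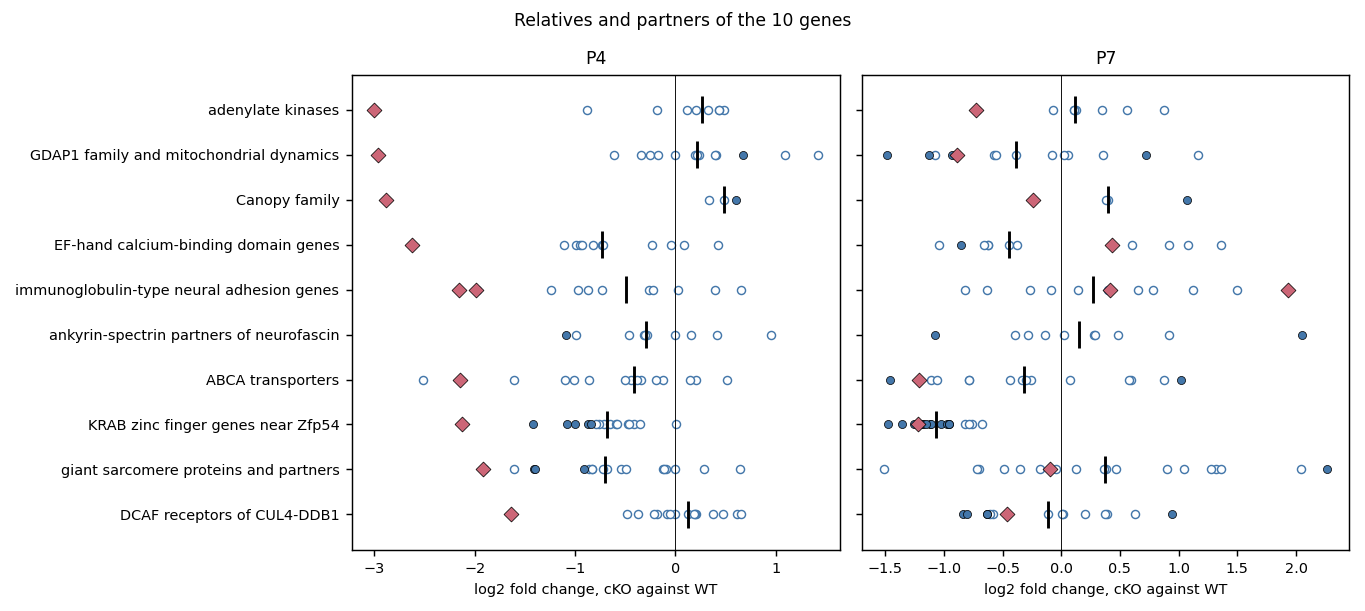
Log2 fold change of cKO against WT at P4 and P7 for the relatives and partners of each gene, 1 line per list. Diamonds are genes of the set, filled circles other genes past the edgeR threshold, open circles those that did not pass, and bars the median of the other genes. The relatives of Zfp54 lie mostly below 0 at both ages, and those of Cnpy1 above 0.

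Markers of other cell types were read beside the set, and their part in the result was not tested. Their lists were chosen with earlier results of these data known. Spermatocyte genes were also low in cKO at P4, with 8 of 10 called lower (median -1.92), against 4.13% of all genes. Their sum was 167 and 190 CPM in P4 WT against 59.2 to 72.9 CPM in P4 cKO. The set was chosen for being low there, so no link between it and these genes is read from P4. At P7 the spermatocyte sum was 650 and 651 CPM in WT and 186 to 343 CPM in cKO. The median log2 fold change of that list was -1.10 at P7, with -0.35 for the set and 0.08 for all genes. Germ cell genes summed to 345 and 430 CPM in P4 WT and to 247 to 254 CPM in P4 cKO, and 3 of 10 were lower. Sertoli cell genes went the other way, with 4 of 10 higher, against 891 of all 18419 genes. Their sums were 2970 and 4020 CPM in P4 WT against 5130 to 5780 CPM in P4 cKO. Spermatid genes summed to 18.7 and 21.4 CPM in P4 WT and 16.9 to 19.0 CPM in P4 cKO, with 0 of 12 called. Single spermatid markers, named after their values were seen, went both ways. Gapdhs had 125 and 183 reads in P4 WT and 319, 229 and 289 in P4 cKO. Akap4 had 78 and 72 against 10, 26 and 30, and Smcp 64 and 58 against 12, 22 and 14. At P7 the spermatid genes summed to 7.55 and 8.03 CPM in WT and 17 to 36.7 CPM in cKO, with a list median of log2 3.29. P7 cKO library 1 had the most reads of Prm2 (226, against 74 and 84 in libraries 2 and 3). It did not for Gapdhs (204, against 356 and 301). Prm1, Prm2 and Tnp2 had 0 reads in P7 WT. Neuron markers, beside Dscaml1, Nfasc and Gdap1, summed to 144 and 164 CPM in P4 WT and 149 to 163 CPM in P4 cKO, with 0 of 11 called. Map2 and Tubb3 held the most reads of that list, and single markers, named after their values were seen, went both ways. Snap25 had 170 and 124 reads in P4 WT and 64, 55 and 60 in P4 cKO, and Elavl3 40 and 36 against 17, 10 and 2. Gap43 had 28 and 28 against 50, 69 and 88. Schwann cell markers summed to 197 and 217 CPM against 214 to 244 CPM at P4, with 0 of 9 lower and 1 higher. Motile ciliated cell markers summed to 75.7 and 86.7 CPM in P4 WT and 69.1 to 70.4 CPM in P4 cKO, with 2 of 8 lower and 1 higher. At P4, 3 of 9 Leydig cell, 3 of 8 peritubular myoid cell and 3 of 8 macrophage markers were called higher and 0 lower. Of all 18419 genes, 891 were called higher. The medians of these lists were 1.24, 0.40 and 1.04. Their P4 sums overlapped for Leydig cells (1530 and 1800 CPM in WT, 1660 to 1790 CPM in cKO). They also overlapped for myoid cells (1550 and 1580 against 1540 to 1770 CPM). The macrophage sums were 84.5 and 84.7 CPM in WT and 88.6 to 146 CPM in cKO.

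Exon length and GC content went with the genotype difference over all genes, more at P7 than at P4. Over 10 equal bins of genes by exon length, the median log2 fold change ran from 0.22 in the shortest to -0.12 in the longest at P4 and from 0.61 to -0.37 at P7. Over 10 such bins by GC content it ran from -0.21 at the lowest GC to 0.26 at the highest at P4, and from -0.91 to 0.91 at P7. Of the 10 genes, 3 were in the longest bin and 4 in the lowest bin by GC. With offsets for both properties the P4 differences of the 9 genes of known GC content ran from -1.72 in Ttn to -2.85 in Ak9. Dcaf8l, whose GC content was not known and was set to the median of all genes, was at -1.62. At P7 the same offsets brought Gdap1 from -0.89 to -0.04, Ak9 from -0.72 to -0.04, Abca16 from -1.21 to -0.21 and Zfp54 from -1.22 to -0.47, and Dscaml1 from 1.93 to 1.54. Nfasc went from 0.42 to 0.29 and Dcaf8l from -0.46 to -0.30. Further from 0 were Cnpy1 (from -0.24 to 0.59), Ttn (from -0.10 to 0.36) and Efcab3 (from 0.43 to 0.77).

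**Figure D4:**
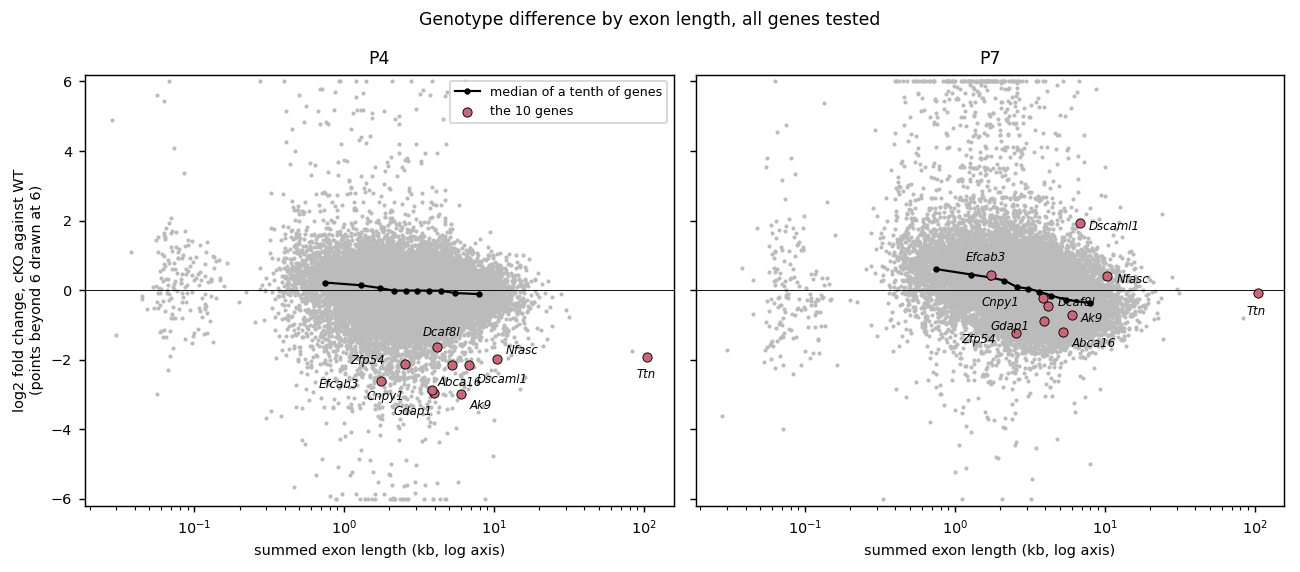
Log2 fold change of cKO against WT by summed exon length in kb (log axis) for all 18419 genes tested (grey), with the median of each of 10 equal bins as a black line and the 10 genes in red. At P4 the 10 genes lie below the line, as chosen, and at P7 they lie on both sides of it.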

How the data were processed

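Total RNA of testis was extracted with TRIzol and sequenced from TruSeq libraries, per the labels. The authors deposited 1 table of raw read counts per gene with gene coordinates and exon lengths. The submitters' processing notes name, among other tools, STAR 2.7.11a, Subread 2.0.6 and featureCounts, with GRCm38 as the build. How strand and multiply matching reads were treated is not given in the sources used here. Of counts under 50, 67.8% to 80% per library were even numbers, so 1 count may not be 1 independent fragment.

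Counts were filtered with filterByExpr (18419 genes kept), scaled with TMM factors and compared by the robust quasi-likelihood F test of edgeR 4.0.16 (R 4.3.3), with a mean for each of the groups over 9 samples and 5 residual degrees of freedom, with two-sided p-values adjusted by Benjamini-Hochberg over all genes and 0.05 as the threshold. The fit takes the spread of P7 WT, a single sample, from the other groups. CPM uses the TMM factors. Each standard error (SE) is the absolute log2 fold change over the root of F. The scripts were tested on simulated data. Profiles were compared on log2(CPM + 0.25). Length and GC offsets came from smooths per library fitted with mgcv 1.9.3, with lengths held at the 99th percentile and an unknown GC content set to the median. Percent values of a list are shares of genes counted from the deposited table.

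The members, lists and tests were chosen with earlier results of these data known. Named beside the members are, in each list, up to 3 other genes with the highest level per kb, the 5 genes of most similar profile and the nearest genes. Alternatives were RLE factors, library totals, no filter, a minimum count of 50, DESeq2 1.42.0, limma-voom (limma 3.58.1), the compared stage alone, 10 separate libraries, a replicate block, length offsets, each library left out, and, chosen after seeing the data, length and GC offsets.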

Additional observations from a re-analysis of the deposited data

Results flagged for a closer look

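Dscaml1 and Nfasc differed in direction between the ages. Every P4 cKO library was below WT and every P7 cKO library above it, with a log2 fold change at P7 of 1.93 for Dscaml1 and 0.42 for Nfasc. The difference between the ages was not tested, because the P4 contrast chose the genes, and the P7 side rests on a single WT sample.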

How the results depend on the processing

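All 10 genes were lower in cKO at P4 in each of the 21 alternatives, with log2 fold changes from -3.16 (Ak9) to -1.57 (Dcaf8l). Large falls in these same P4 libraries chose the genes, so this is a description and nothing is read from it. At P7, which did not choose them, some signs and calls changed with the setting. No gene passed as lower in the main edgeR fit. In other settings 2 passed, with limma-voom and, by edgeR, with 10 separate libraries and with the replicate block. The number ran from 0 to 3 when single libraries were left out (3 without P7 cKO library 1). The 1 gene called higher, Dscaml1, was 0 with the P7 libraries alone and with length and GC offsets, and 0 to 1 when libraries were left out (0 without P7 cKO library 2). Ttn at P7 turned its sign with library totals (0.0098), the replicate block (0.011), the length offset (0.34) and the length and GC offsets (0.36), Cnpy1 did so with length and GC offsets (0.59), and with single libraries left out Cnpy1 ran from -1.40 to 0.14 and Efcab3 from -0.52 to 0.76. The cause of these shifts was not tested.

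The count of genes called at P4 was 1651, and it was 3008 with DESeq2, 3229 with the P4 libraries alone, 2895 with 10 separate libraries, 2732 with the replicate block and 615 with length and GC offsets. It ran from 2 (without P4 WT library 1) to 4157 (without P7 cKO library 1) when libraries were left out. At P7 the count was 3129, and it was 0 with the P7 libraries alone by edgeR (4834 genes at an unadjusted p under 0.05), 6905 with 10 separate libraries, 7438 with the replicate block and 2 with length and GC offsets. It ran from 961 (without P7 cKO library 2) to 4921 (without P7 cKO library 1). With library totals as the scale the median of all genes went to -0.16 (P4, 0.00 before) and 0.19 (P7, 0.08 before), and the calls at P4 were 1544 lower and 528 higher, against 760 and 891. Libraries with the same number in a stage deviated together in 1 of 4 pairs (correlation over 0.1), in a range from -0.13 to 0.24. This check could not tell whether the numbers pair the samples. With 2 WT libraries per stage their deviations mirror each other, and the 2 P7 WT libraries differed by little beyond counting noise. Weak genes such as Abca16 and Ak9, with 5 to 26 reads in each P4 cKO library, are limited by depth.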
